A study of Mus musculus with 14 samples.

Results

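The transcripts of 10 aldehyde dehydrogenase genes were followed in rd1 mice with and without overexpression of Nrf2 in the retinal pigment epithelium (RPE), the monolayer that supports the photoreceptors from behind. The genes were given by name: Aldh1a1, Aldh1a2, Aldh1a3, Aldh1a7, Aldh2, Aldh3a1, Aldh3a2, Aldh3b1, Aldh7a1 and Aldh9a1. Each matched 1 row by its Ensembl identifier, so they made up 10 of 34452 mouse gene rows, and all 10 were among the 16289 genes that passed the filter on low counts. In each of 7 FVB/N mice, which carry the rd1 loss-of-function allele of Pde6b and lose their rods early, both eyes had received an AAV that drives GFP from the human Best1 promoter, which is active in the RPE. One eye of each mouse had also received an AAV-Best1-Nrf2 vector with the human NFE2L2 cDNA in another capsid, so that an added vector, and not the transgene alone, set the Nrf2 eye apart from the control eye. All 14 libraries were made at postnatal day 20 from the lysate of an eyecup whose retina had been removed, after GFP fluorescence had been checked over the eye. The comparison addressed which transcripts Nrf2 changes in a degenerating RPE.

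Aldehyde dehydrogenases oxidise aldehydes to carboxylic acids, with NAD or NADP as the electron acceptor. Several of them clear aldehydes that form when polyunsaturated lipids are oxidised, such as 4-hydroxynonenal, and the RPE takes up such lipids with the shed outer segments of photoreceptors. Aldh1a1, Aldh1a2 and Aldh1a3 also make retinoic acid from retinaldehyde, the form of vitamin A that the RPE recycles for vision, and retinoic acid then acts through nuclear receptors. Nrf2 is a transcription factor that raises many enzymes of detoxification, and Aldh3a1 is often listed among its targets.

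Total counts were 16548349 to 50543008 per library. Levels are given as CPM, counts per 1e+06 of the TMM-scaled library size, and a library such as Nrf2 4 is the Nrf2 eye of mouse 4. The vector transcript reached 4897 to 9812 CPM in 6 Nrf2 libraries and 0.987 to 168 CPM in 6 control libraries. The other two libraries were alike: control 3 held 1159 CPM of it and Nrf2 4 held 1144 CPM. Of all 91 pairs of libraries, control 3 and Nrf2 4 were also the closest, with a median absolute log2 difference of 0.0851 over 12017 genes, against 0.151 for the next pair. They come from different mice and were kept under their labels, and values without mouse 4, or without mice 3 and 4 both, are given beside the results that moved with them. The 10 RPE markers were present in all libraries at a summed 7791 to 30012 CPM. Markers of surface and corneal epithelium were present too: 12 markers, among them the corneal keratin Krt12, summed to 1818 to 61116 CPM in control libraries and 2479 to 26083 CPM in Nrf2 libraries. Transcripts typical of other eye tissue were thus present beside those of the RPE.

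One of the 10 genes, Aldh7a1, passed the test (adjusted p under 0.05) and it rose with Nrf2. Over all genes tested, 3.43% passed in either direction, 2.94% with higher and 0.491% with lower values in Nrf2 eyes. Aldh7a1 and Aldh2 had more in the Nrf2 eye than in the control eye of all 7 mice, as had 5.65% of all genes, and none of the 10 had less in all 7 mice, against 2.92% of all genes. The control and Nrf2 libraries overlapped in all 10 genes, and the groups did not overlap in 1.6% of all genes tested. The median log2 fold change was 0.17 over the 10 genes and -0.042 over all genes tested, and 6 of the 10 values were above 0. Aldh2 and Aldh3b1 also had an unadjusted p under 0.05, a level that 2955 of the 16289 genes tested reached. The plot of the 10 genes by mouse gives each library.

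**Figure D1:**
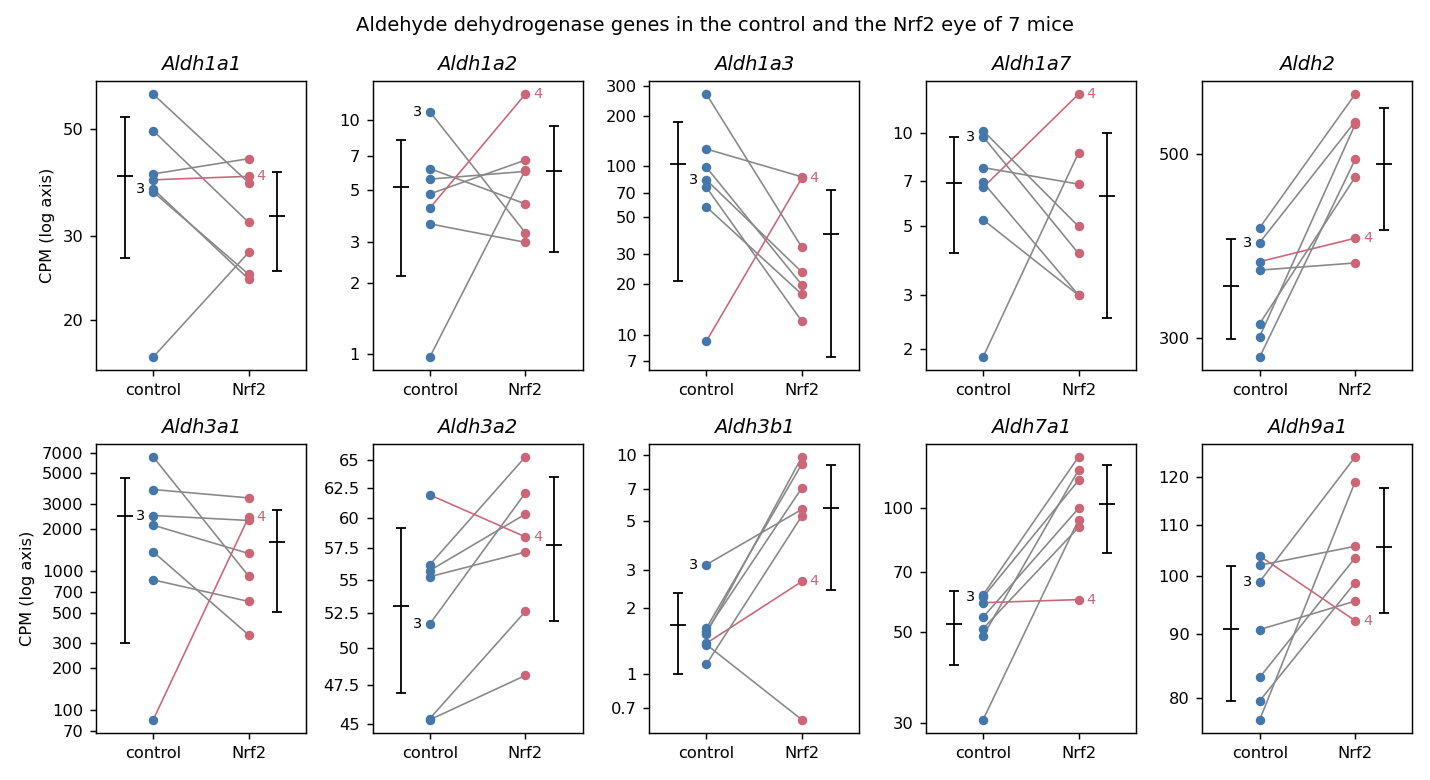
Level of each of the 10 genes in CPM (log axis) in the control and the Nrf2 eye of 7 mice: points are libraries, lines join the eyes of a mouse, the red line and the label 4 mark mouse 4, the label 3 marks control 3, and black bars are mean ± SD. Aldh7a1 and Aldh2 were higher in the Nrf2 eye in every mouse, while Aldh1a3 and Aldh3a1 were lower in every mouse but mouse 4.

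Aldh7a1 encodes antiquitin, which oxidises an aldehyde of lysine breakdown and also acts on aldehydes from lipids. It lies on chromosome 18 (Ensembl ENSMUSG00000053644). In control libraries it ranged from 30.5 to 61.4 CPM with a median of 54.2 CPM. In Nrf2 libraries it ranged from 59.8 to 133 CPM with a median of 99.8 CPM. All Nrf2 libraries were above every control library except the lowest, Nrf2 4, which lay inside the control range. The mean was 52.1 ± 10.7 CPM (SD, n = 7) in control and 102 ± 24.8 CPM (SD, n = 7) in Nrf2, for a log2 fold change of 0.97 (standard error 0.17, adjusted p = 0.0241), or 1.95-fold. By mouse, the log2 difference went from 0.025 in mouse 4 to 1.62 in mouse 6, and the exact sign-flip permutation p was 0.0156, the smallest that 7 mice allow. Mouse 6 holds the lowest control library, at 30.5 CPM, so its large difference was set by that eye. The log2 fold change was 1.16 without mice 3 and 4 (adjusted p = 0.0116). It was 0.85 to 1.12 when any single mouse was left out, and the adjusted p then rose above 0.05 in every case but that of mouse 4, with 0.0957 as the highest, without mouse 7. Of the short sequences of 31 bases in its transcripts, 7.5% also occur in transcripts of other genes, mostly Phax, which overlaps it.

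The 5 genes whose 7 paired differences were most like those of Aldh7a1, among 12003 genes with at least 5 CPM, were Gaa, Cd81, Aga, Pgm1 and Dusp18. Gaa, the acid alpha-glucosidase of lysosomes, was closest, with a root mean square difference of 0.103 on the log2 scale over 7 mice. The next, the tetraspanin gene Cd81, differed by 0.152, and the fifth, the phosphatase gene Dusp18, by 0.184. Their own log2 fold changes were 0.90 for Gaa, 1.10 for Cd81, 0.93 for Aga, 1.00 for Pgm1 and 0.88 for Dusp18. Values near that of Aldh7a1 follow from the way these genes were picked. The likeness describes these mice, since all values come from the same 14 libraries.

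Aldh2 encodes the mitochondrial enzyme that oxidises acetaldehyde and 4-hydroxynonenal (chr5:121566027-121593824, GRCm38). It ranged from 285 to 407 CPM in control libraries, with a median of 362 CPM. In Nrf2 libraries it ranged from 369.6 to 589.7 CPM, with a median of 492 CPM. Nrf2 2 and Nrf2 4 were the only Nrf2 libraries inside the control range. The means were 347 ± 47.5 CPM (SD, n = 7) and 486 ± 81.3 CPM (SD, n = 7), for a log2 fold change of 0.48 (standard error 0.13). The adjusted p was 0.0986, and the exact sign-flip permutation p over 7 mice was 0.0156. Aldh2 passed the threshold when mouse was left out of the model (adjusted p = 0.0303) and when mouse 4 was left out (adjusted p = 0.0265). It did not pass without mice 3 and 4 both (adjusted p = 0.109). With all mice it passed in DESeq2 (0.50, adjusted p = 0.00698) and in voom with quality weights (0.55, adjusted p = 0.00689).

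Aldh3b1 encodes an enzyme that acts on medium and long-chain aldehydes from lipid oxidation (chr19:3913491-3929808). It was among the least abundant members, at 36 to 105 counts per control library. In CPM it ranged from 1.11 to 3.16 in control libraries, with a median of 1.53. In Nrf2 libraries it ranged from 0.621 to 9.80 CPM, with a median of 5.65 CPM. Of the Nrf2 libraries, 5 lay above every control library, and Nrf2 2, with 11 counts, was the lowest of all 14. The means were 1.68 ± 0.676 CPM (SD, n = 7) and 5.74 ± 3.31 CPM (SD, n = 7). The log2 fold change of 1.54 (standard error 0.49) had an adjusted p of 0.145 and an exact sign-flip permutation p of 0.0625 over 7 mice. Without mouse 2 the log2 fold change was 1.89 (adjusted p = 0.0409), and without mouse as a term it was 1.77 (adjusted p = 0.0321). With all mice Aldh3b1 passed in DESeq2 (1.55, adjusted p = 0.00762) and in voom (1.82, adjusted p = 0.00823), and in edgeR without mice 3 and 4 it did not (1.84, adjusted p = 0.154). Of its 31-base sequences, 15.2% also occur in Aldh3b2 or Aldh3b3, so reads may have been divided between these genes.

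Aldh3a2 encodes the fatty aldehyde dehydrogenase of the endoplasmic reticulum and peroxisomes (chr11:61223417-61267464). It was at 45.2 to 61.9 CPM in control libraries (median 55.2 CPM) and 48.1 to 65.3 CPM in Nrf2 libraries (median 58.4 CPM). The ranges nearly coincided. Its log2 fold change was 0.12 (standard error 0.08, adjusted p = 0.448), with a higher value in the Nrf2 eye of 6 of 7 mice. Aldh9a1, which oxidises an aldehyde on the path to carnitine (chr1:167349991-167368532), was similar in this respect. It ranged from 76.8 to 104 CPM in control libraries (median 90.7 CPM) and from 92.2 to 125 CPM in Nrf2 libraries (median 103 CPM). Nrf2 1, 3 and 7 lay above the control range. The log2 fold change of Aldh9a1 was 0.22 (standard error 0.11, adjusted p = 0.321), higher in 6 of 7 mice. In both genes mouse 4 was the exception.

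**Figure D2:**
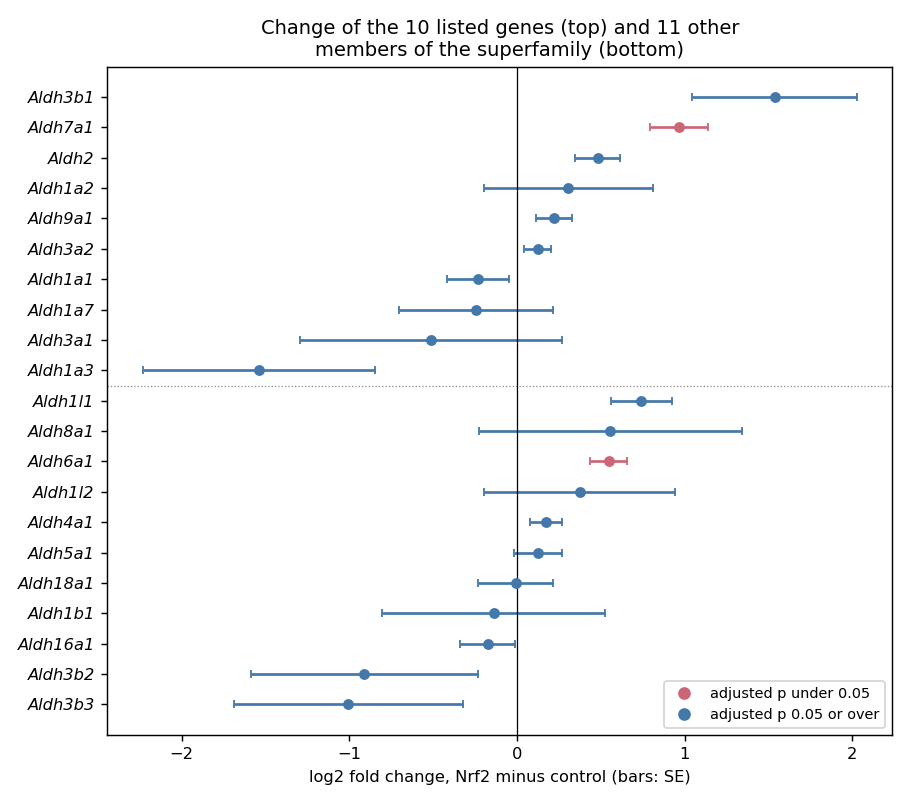
Log2 fold change of Nrf2 minus control with its standard error (bars) for the 10 listed genes above the dotted line and 11 other members of the superfamily below it; red marks adjusted p under 0.05. Aldh7a1 at 0.97 and Aldh6a1 at 0.55 are the genes past the threshold, and Aldh1a3 and Aldh3b1 lie farthest from 0 with wide bars.

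Of the 3 enzymes that make retinoic acid, Aldh1a3 had the lowest log2 fold change of all 10 genes, and none of the 3 passed the test in edgeR (none had an unadjusted p under 0.05). Aldh1a3 (chr7:66390890-66427517) ranged from 9.18 to 269 CPM in control libraries, with a median of 83.1 CPM. In Nrf2 libraries it ranged from 12.01 to 86.7 CPM, with a median of 23.6 CPM. Control 4, at 9.18 CPM, was the lowest of all 14 libraries, and every other control library held at least 57.5 CPM. Nrf2 4 and Nrf2 5, at 85.6 and 86.7 CPM, were the highest Nrf2 libraries, and the others held at most 33.0 CPM. The means were 103 ± 81.8 CPM (SD, n = 7) and 39.7 ± 32.4 CPM (SD, n = 7), for a log2 fold change of -1.54 (standard error 0.69, adjusted p = 0.286). In 6 of 7 mice the Nrf2 eye had less, with paired log2 differences of -3.02 to -0.55, and mouse 4 had more, with 3.21. Without mouse 4 the log2 fold change was -2.02 (adjusted p = 0.00815), and without mice 3 and 4 it was -2.07 (adjusted p = 0.0301). With all mice it passed in DESeq2 (-1.51, adjusted p = 0.0483) and in voom with quality weights (-1.54, adjusted p = 0.038). The value with all mice was kept as the result, since mouse 4 was singled out with its values known.

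Aldh1a1, the enzyme of this kind best known from the dorsal retina and the lens (chr19:20492715-20643465), ranged from 16.8 to 59.1 CPM in control libraries (median 39.2 CPM) and from 24.4 to 43.4 CPM in Nrf2 libraries (median 31.98 CPM). All Nrf2 libraries lay inside the control range. Its log2 fold change was -0.23 (standard error 0.18, adjusted p = 0.538), and it was lower in 4 mice and higher in 3. Aldh1a2, which makes retinoic acid in much of the embryo and in the choroid (chr9:71215789-71296243), ranged from 0.966 to 10.8 CPM in control libraries (median 4.81 CPM) and from 2.99 to 12.9 CPM in Nrf2 libraries (median 6.01 CPM). Control 3 and Nrf2 4 were the highest library of their groups. The log2 fold change of Aldh1a2 was 0.31 (standard error 0.50, adjusted p = 0.789). Its sign was not stable, with -0.056 when mouse 6 was left out. Without mice 3 and 4 it was 0.42 (standard error 0.51, adjusted p = 0.719).

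Per kilobase of transcript, Aldh1a1, Aldh1a2 and Aldh1a3 together came to 49.1 ± 20.3 CPM per kb (SD, n = 7) in control eyes and 28.2 ± 11.8 CPM per kb (SD, n = 7) in Nrf2 eyes. The sum was lower in the Nrf2 eye of 6 of 7 mice, mouse 4 being the exception, so it was lower in all 5 mice left without mice 3 and 4. Its mean paired log2 difference was -0.785, with an exact sign-flip permutation p of 0.0781 over 7 mice. Its make-up differed widely between libraries: Aldh1a3 was 12.6% to 91.2% of it in control libraries and 14.6% to 58.7% in Nrf2 libraries. Aldh1a2 was never above 15.4%. Aldh1a3 moved with the markers of surface and corneal epithelium, as given below, and the sum was not adjusted for them. Aldh1a1 was the largest share in 7 of 14 libraries, control 1 and 4 and Nrf2 1, 2, 3, 6 and 7. Its share was highest in control 4, at 78.7%, and in Nrf2 7, at 77.3%.

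Aldh1a7 is a rodent gene next to Aldh1a1 that arose from it by duplication, and it is not counted among the makers of retinoic acid (chr19:20692953-20727562). It ranged from 1.89 to 10.1 CPM in control libraries (median 6.91 CPM) and from 2.99 to 13.3 CPM in Nrf2 libraries (median 4.98 CPM). The log2 fold change was -0.24 (standard error 0.46, adjusted p = 0.822), with a higher value in the Nrf2 eye of mice 4 and 6. Aldh1a1 and Aldh1a7 differ at 126 of 1506 coding positions, an identity of 91.6%, while the next closest pair among the 10 genes, Aldh1a2 and Aldh1a3, shares 68.5%. How much of the short reads can tell these genes apart depends on the place in the coding sequence. The stretch of 120 bases with the fewest differences, at coding positions 199 to 318 counted from the A of the start codon, has 1 difference, and the stretch with the most, at positions 877 to 996, has 24. Both are shown from GENCODE M21 transcripts, with the differing bases in capitals.
Aldh1a1, 199 to 318: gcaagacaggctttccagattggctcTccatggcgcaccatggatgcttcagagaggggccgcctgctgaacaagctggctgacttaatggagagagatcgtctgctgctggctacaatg
Aldh1a7, 199 to 318: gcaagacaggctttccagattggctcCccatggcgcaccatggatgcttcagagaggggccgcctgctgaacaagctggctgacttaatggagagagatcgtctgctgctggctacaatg
Aldh1a1, 877 to 996: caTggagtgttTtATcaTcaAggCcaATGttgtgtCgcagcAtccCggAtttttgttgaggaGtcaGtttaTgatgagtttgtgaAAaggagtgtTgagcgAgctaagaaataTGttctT
Aldh1a7, 877 to 996: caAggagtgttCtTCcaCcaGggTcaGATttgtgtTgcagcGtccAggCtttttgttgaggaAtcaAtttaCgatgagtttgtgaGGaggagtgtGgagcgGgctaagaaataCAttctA
The longest run the coding sequences share is 100 bases. Of the 31-base sequences in their transcripts, 5.7% of those of Aldh1a1 occur in Aldh1a7 and 13.8% of those of Aldh1a7 occur in Aldh1a1. With the counts of both genes summed to 1 row, the log2 fold change was -0.22 (standard error 0.22, adjusted p = 0.636), and most counts of that sum are those of Aldh1a1.

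Aldh3a1 is the aldehyde dehydrogenase that corneal epithelium holds in very large amounts, where it absorbs ultraviolet light and clears aldehydes (chr11:61207537-61218421). It had the highest mean CPM of the 10 genes in both groups, although in control 4 it lay below Aldh2 and Aldh9a1. In control libraries it ranged from 84.8 to 6564 CPM with a median of 2120 CPM, and in Nrf2 libraries from 345 to 3330 CPM with a median of 1328 CPM. Control 4 was the lowest and control 6 the highest of all 14 libraries. The means were 2472 ± 2169 CPM (SD, n = 7) and 1606 ± 1102 CPM (SD, n = 7), for a log2 fold change of -0.51 (standard error 0.78, adjusted p = 0.767). It was lower in the Nrf2 eye of 6 of 7 mice, with paired log2 differences of -2.85 to -0.12, and higher in mouse 4, with 4.84. Without mouse 4 the log2 fold change was -1.02 (standard error 0.40, adjusted p = 0.143), and without mice 3 and 4 it was -1.22 (standard error 0.44, adjusted p = 0.166).

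The levels of Aldh3a1 and Aldh1a3 moved with the markers of surface and corneal epithelium. All 12 of these markers had a log2 fold change below 0, with a median of -1.42, and none passed the test in edgeR with all mice, where 1 had an unadjusted p under 0.05. Without mouse 4, 10 of the 12 passed, all lower in Nrf2 eyes, against 1007 of 16318 genes called lower. Without mice 3 and 4 both, 3 passed, Krt13, Krt14 and Dsg3, also lower, against 262 of 16563 genes called lower. DESeq2 with all mice called 3 and voom 1, all lower, against 705 and 1008 of 16289 genes called lower. In bulk libraries such as these, fewer cells of a type and less RNA per cell cannot be told apart. Across the 7 mice, the paired log2 difference of Aldh1a3 went with the mean paired log2 difference of the 12 markers with Pearson's r = 0.997 (exact permutation p = 0.000198, adjusted over 10 genes 0.00198) and Spearman's rho = 1.0 (exact permutation p = 0.000397, adjusted 0.00397). Without mice 4 and 6, which lie farthest from the median, r was 0.97. For Aldh3a1, r was 0.978 (exact permutation p = 0.00119, adjusted 0.00595) and rho was 0.893 (exact permutation p = 0.0123, adjusted 0.0615), and r was 0.803 without mice 4 and 6. For Aldh7a1, r was -0.892 (exact permutation p = 0.0153, adjusted 0.0509), rho was -0.75 (exact permutation p = 0.0663, adjusted 0.221), and r was -0.243 without mice 4 and 6, so that relation rested on these mice. The adjusted p of r was 0.108 or more for the remaining 7 genes. The relations were computed after the values had been seen, and both sides of each come from the same libraries. The plot of the gene level against the markers shows the libraries themselves.

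**Figure D3:**
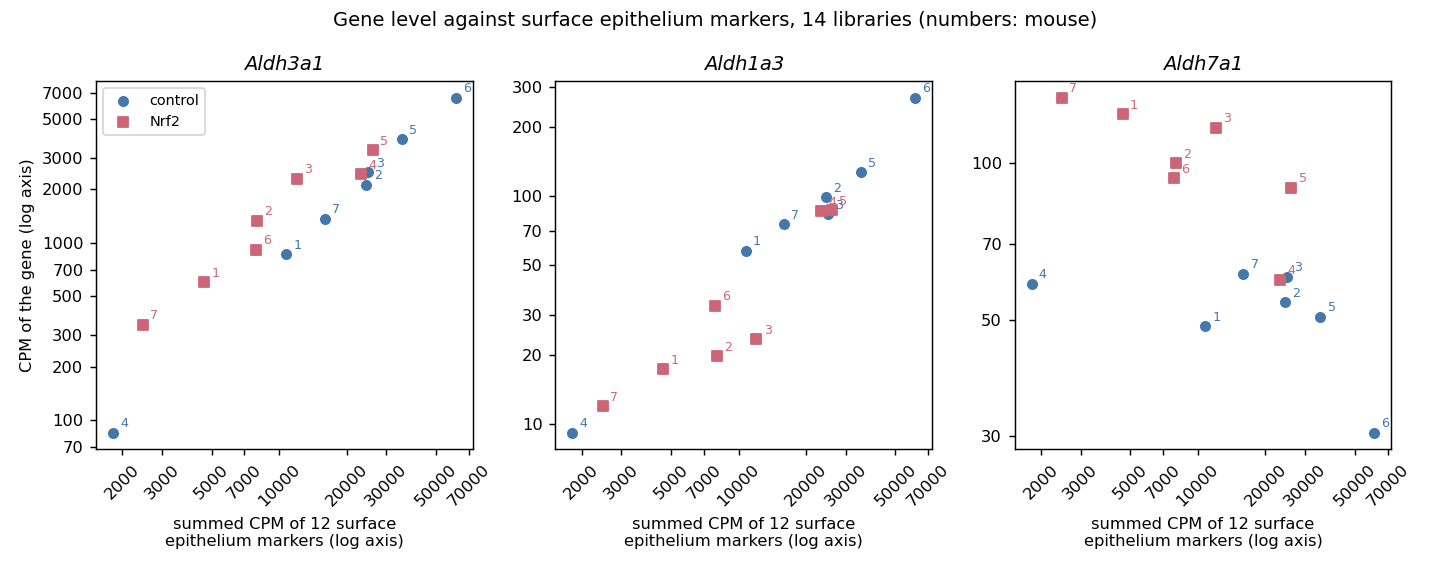
Level of Aldh3a1, Aldh1a3 and Aldh7a1 in CPM (log axis) against the summed CPM of 12 surface and corneal epithelium markers (log axis) in 14 libraries, numbered by mouse; circles are control and squares Nrf2. Aldh3a1 and Aldh1a3 climb with the markers in both groups, from control 4 at the lower left to control 6 at the upper right, and control 3 and Nrf2 4 lie together in every panel.

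As a percentage of the summed CPM of the 12 markers, Aldh3a1 was 4.67% to 10.9% in control libraries and 10.5% to 19.1% in Nrf2 libraries. The mean was 8.78 ± 2.13% (SD, n = 7) in control and 13.9 ± 2.99% (SD, n = 7) in Nrf2, and the Nrf2 eye had the higher percentage in each of 7 mice, mouse 4 included. The log2 fold changes of the 12 markers ran from -1.85 to -0.65, the latter that of the corneal keratin Krt12, and Aldh3a1 had -0.51. The percentage therefore depends on which markers make up the sum, and whether it would rise against Krt12 alone was not tested. Aldh1a3 was 0.436 ± 0.0742% (SD, n = 7) of the same sum in control and 0.347 ± 0.0987% (SD, n = 7) in Nrf2, and lower in 6 of 7 mice, mouse 7 being the exception. With the mean level of the markers added to the model, an alternative chosen after the data had been seen, the log2 fold change of Aldh3a1 was 0.81 (standard error 0.22, adjusted p = 0.118), opposite in sign to the value without it. That of Aldh1a3 was then -0.36 (standard error 0.10, adjusted p = 0.117). Aldh7a1 was still past the threshold, at 0.77 (standard error 0.11, adjusted p = 0.0125). The sign of Aldh3a1 thus depended on whether the epithelial markers were taken into account, and it did not pass the test either way.

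Compared per kilobase of the transcript with the longest coding sequence, Aldh3a1 led in both groups, at 1430 ± 1254 CPM per kb (SD, n = 7) in control and 929 ± 637 CPM per kb (SD, n = 7) in Nrf2. Aldh2 came second, at 89.8 ± 12.3 and 126 ± 21.03 CPM per kb. In control eyes the order then ran Aldh9a1 (32.01), Aldh1a3 (29.9), Aldh7a1 (27.2), Aldh3a2 (18.3), Aldh1a1 (16.9), Aldh1a7 (3.34), Aldh1a2 (2.28) and Aldh3b1 (0.874), all mean CPM per kb. Ranges over libraries overlapped between all neighbours in this order except between Aldh2 and Aldh9a1 and between Aldh1a1 and Aldh1a7. In Nrf2 eyes Aldh7a1 was the third, at 53.5 ± 12.9 CPM per kb (SD, n = 7), ahead of Aldh9a1 at 37.3 ± 4.25 CPM per kb (SD, n = 7) in 6 of 7 libraries, and Aldh1a3 was the seventh, at 11.5 ± 9.40 CPM per kb (SD, n = 7). Aldh1a7, Aldh3b1 and Aldh1a2 were last in these eyes with overlapping ranges.

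Nrf2 binds DNA as a dimer with small Maf proteins at antioxidant response elements, whose core is written TGACNNNGC. The RefSeq promoter sequences (build GRCm38) cover 250 bases before to 50 after the transcription start, and they were searched for this core on both strands. Of the 32851 promoters searched, 12.4% held it. The search covered 6 of the 10 genes: Aldh1a1, Aldh1a2, Aldh1a7, Aldh3a2, Aldh3b1 and Aldh9a1. Aldh1a3, Aldh2 and Aldh3a1 had no entry. Aldh7a1, the member that passed the test, was left out of the search, so whether its promoter holds the core was not tested. Aldh1a2 and Aldh9a1 had 1 match each, 112 and 87 bases before the start. They are shown with the core in capitals, for Aldh1a2 from chr9:71215631-71215730 and for Aldh9a1 from chr1:167349858-167349957, both on the plus strand, which is the strand of the gene.
Aldh1a2: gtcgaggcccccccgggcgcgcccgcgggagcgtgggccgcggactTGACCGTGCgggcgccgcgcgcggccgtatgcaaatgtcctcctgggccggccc
Aldh9a1: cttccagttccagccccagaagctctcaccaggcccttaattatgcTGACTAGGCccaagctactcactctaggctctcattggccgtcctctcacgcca
Neither gene passed the test between the groups. The match is a match of letters only, in a window that leaves out more distant elements.

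Among 11 further members of the superfamily, Aldh6a1 passed the test. Aldh6a1 encodes methylmalonate semialdehyde dehydrogenase, a mitochondrial enzyme of valine breakdown. It ranged from 103 to 142 CPM in control libraries (median 132 CPM) and from 132 to 237 CPM in Nrf2 libraries (median 192 CPM). Only Nrf2 4 lay inside the control range. Its log2 fold change was 0.55 (standard error 0.11, adjusted p = 0.0364), with a higher value in the Nrf2 eye of 7 of 7 mice. Leaving out mouse 1, 2, 3, 5, 6 or 7 brought the adjusted p to 0.0548 to 0.131, and so did the fit without a filter (0.114) and the one with the epithelial markers (0.0566). Aldh1l1, a folate enzyme that also marks astrocytes, went from 32.7 ± 6.49 to 55.0 ± 13.5 CPM (SD, n = 7 each), a log2 fold change of 0.74 (standard error 0.18, adjusted p = 0.0668). It passed without mouse as a term (adjusted p = 0.0182), without mouse 4 (adjusted p = 0.0136), in DESeq2 (adjusted p = 0.0051) and in voom (adjusted p = 0.0107). It did not pass in edgeR without mice 3 and 4 (adjusted p = 0.0579), with RLE (0.0695), with the epithelial markers (0.0832) or without a filter (0.124). Nor did it pass without any other single mouse (adjusted p = 0.0977 to 0.205). Aldh3b2 and Aldh3b3, close relatives of Aldh3b1, had values of the other sign, at -0.91 (standard error 0.68, adjusted p = 0.507) and -1.01 (standard error 0.68, adjusted p = 0.468), and each was higher in the Nrf2 eye of mouse 4 alone. Aldh3b2 passed without mouse 4, at -1.39 (adjusted p = 0.0312), and did not without mice 3 and 4, at -1.52 (adjusted p = 0.0589). With the epithelial markers in the model, Aldh3b2 was at 0.21 (standard error 0.20) and Aldh3b3 at 0.0089 (standard error 0.27), so their sign depended on these markers. Aldh4a1, Aldh5a1, Aldh16a1 and Aldh18a1 lay between -0.17 and 0.18. Aldh1b1, Aldh1l2 and Aldh8a1 had mean levels of 0.578 to 3.14 CPM and adjusted p of 0.745 or more. The median log2 fold change of the 11 genes was 0.12.

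The lists of retinol and retinaldehyde supply and of retinoic acid handling and targets gave 2 calls in edgeR with all mice, both in supply. Aox1, which can also oxidise retinaldehyde, was placed in the list of other aldehyde enzymes and is given with it below. Of 17 genes for retinol uptake and retinaldehyde supply, 2 rose and none fell in that fit, where 2.94% of all genes rose and 0.491% fell. Of the 17, 5 had an unadjusted p under 0.05, as had 2955 of all 16289 genes tested. The median log2 fold change of the 17 was -0.16. DESeq2 and voom each called 4, all higher in Nrf2 eyes, with Rdh12 and Ttr added, against 1238 and 1586 of 16289 genes called higher. Without mouse 4 there were 6 calls, 4 higher and 2 lower, the lower ones being Adh1 and Adh7. Of all 16318 genes tested without mouse 4, 1045 were called higher and 1007 lower. Without mice 3 and 4 there were 3 calls, all higher, against 499 of 16563 genes called higher. Bco1, which cleaves beta-carotene into retinaldehyde, was at 0 to 4.94 CPM in control libraries (median 1.56 CPM) and 4.54 to 36.1 CPM in Nrf2 libraries (median 18.8 CPM). The lowest Nrf2 library was Nrf2 4 and the highest control library control 3, and without them the groups were apart. Its log2 fold change was 4.06 (standard error 0.70, adjusted p = 0.0214). Rbp4, the carrier of retinol in blood, went from 0.966 to 5.03 CPM (median 1.95 CPM) in control libraries to 4.38 to 23.6 CPM (median 14.03 CPM) in Nrf2 libraries, a log2 fold change of 2.53 (standard error 0.39, adjusted p = 0.0146). Both were higher in the Nrf2 eye of 7 of 7 mice, as were 5.65% of all genes tested. Without mice 3 and 4 the log2 fold change was 4.09 for Bco1 (adjusted p = 0.0182) and 2.92 for Rbp4 (adjusted p = 0.0146). The adjusted p of Bco1 went to 0.0504 to 0.0841 when mouse 1, 2, 5, 6 or 7 was left out, and that of Rbp4 to 0.0551 to 0.0588 without mouse 1, 5 or 7.

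Downstream of the enzymes no gene passed in edgeR with all mice. Of 13 genes for the degradation, binding and reception of retinoic acid, 11 were tested, none passed, and the median log2 fold change was -0.31. Among genes that retinoic acid is known to induce, which share members with the other lists, 11 were tested, none passed, and the median was also -0.31. An unadjusted p under 0.05 was found for 1 gene of the first list and 2 of the second, and for 2955 of all 16289 genes tested. DESeq2 called 0 and 1 of the lists and voom 2 and 1, all lower in Nrf2 eyes: Rarres1 in DESeq2, and Crabp2 and Rara in voom. Over all 16289 genes DESeq2 called 705 lower and voom 1008. Without mouse 4 the calls were Fabp5 and Rarg in the first list and Rarres1 in the second, again with lower values in Nrf2 eyes. In that fit 1007 of 16318 genes tested were called lower. The genes of the first list under the filter were Cyp26c1 and Crabp1.

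**Figure D4:**
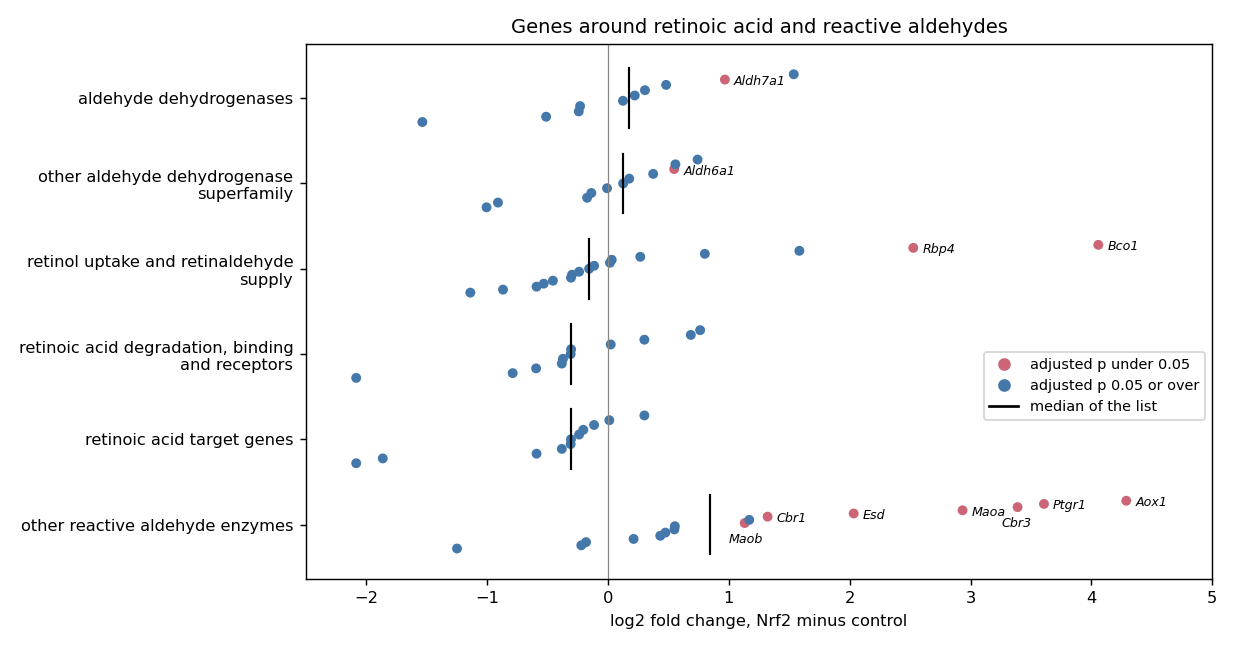
Log2 fold change of Nrf2 minus control for the tested genes of 6 lists, with black bars at the list medians and red points at adjusted p under 0.05. The list of other reactive aldehyde enzymes has 7 red points and the highest median, 0.84, and the lists of retinoic acid handling and targets have none.

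Enzymes outside the family that make or remove reactive aldehydes gave more calls: in edgeR with all mice 7 of 16 rose, none fell, and the median log2 fold change was 0.84. Over all genes tested, 2.94% rose and 0.491% fell in that fit. The list was chosen with earlier results of these data known, so its count is a description only. DESeq2 and voom each called 10, all higher in Nrf2 eyes, against 1238 and 1586 of 16289 genes called higher. Without mouse 4 there were 8 higher and 1 lower, Xdh, against 1045 higher and 1007 lower of 16318 genes tested. Ptgr1, a reductase that acts on 4-hydroxynonenal and related products, averaged 143 ± 121 CPM (SD, n = 7) in control and 1406 ± 628 CPM (SD, n = 7) in Nrf2, for a log2 fold change of 3.61 (standard error 0.49, adjusted p = 0.011). Aox1, an aldehyde oxidase that can also oxidise retinaldehyde, averaged 2.58 ± 3.12 and 38.9 ± 17.2 CPM (SD, n = 7 each), a log2 fold change of 4.29 (standard error 0.56, adjusted p = 0.0101). The carbonyl reductases rose as well, Cbr3 by a log2 fold change of 3.39 (standard error 0.36, adjusted p = 0.00935) and Cbr1 by 1.32 (standard error 0.18, adjusted p = 0.0111). Esd, which hydrolyses the glutathione conjugate of formate, rose by 2.03 (standard error 0.23, adjusted p = 0.00935). Maoa and Maob, the mitochondrial monoamine oxidases that release aldehydes from amines, rose by 2.93 (standard error 0.44, adjusted p = 0.0136) and 1.13 (standard error 0.20, adjusted p = 0.0221). All 7 were higher in the Nrf2 eye of 7 of 7 mice, as were 5.65% of all genes tested. The groups did not overlap for Cbr3, Esd and Maob, nor for 1.6% of all genes tested. These 7 genes were named because they had passed the threshold, so their like direction over mice is no separate result. Maoa lost its call without mouse 1 or 7 (adjusted p = 0.0551 and 0.054) and Maob without mouse 1, 3, 5, 6 or 7 (0.0585 to 0.087). Aox1, Ptgr1, Cbr3, Maoa and Esd had larger log2 fold changes than any of the 10 aldehyde dehydrogenases, whose largest was the 1.54 of Aldh3b1.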

How the data were processed

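RPE RNA was amplified by the authors with a low-input kit. Their methods name STAR alignment to mm10 with Ensembl release 91, and Salmon (0.9.1 per the labels), whose estimated counts entered DESeq2. The authors deposited estimated counts per gene as whole numbers without scaling between libraries, taken here to be those of Salmon from the set of rows. Such counts divide reads between near-identical genes by a model. Of 34452 mouse gene rows, 34401 matched GENCODE M21 (GRCm38), which gave positions and lengths. The row of the human vector transcript entered library sizes only.

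Genes were tested in edgeR 4.0.16 under R 4.3.3 (glmQLFit and glmQLFTest). The model held a term for each mouse and 1 for treatment, after filterByExpr on the groups and TMM scaling. Benjamini-Hochberg adjustment ran over 16289 genes, with 6 residual degrees of freedom and a prior of 2.68. Standard errors were derived from the F statistic. Paired log2 CPM differences (prior count 2) also had their signs flipped in all 128 patterns, an exact permutation test, two-sided. The method was tested on simulated data. Eyes were paired by animal, as the labels number them, and correlations of their deviations from the group means were 0.0343, 0.0699, 0.0919, -0.439, 0.405, -0.261 and 0.188 in mice 1 to 7 (12004 genes). The paper gives 6 paired replicates for its comparison at this age, and all 7 labelled pairs were used here. The labels give 2 sequencing runs but not which library was in which.

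Named were the 10 genes, all 11 further family members, list genes past the threshold, and the 5 genes most like the member with the smallest p. The members and lists were chosen with earlier results of these data known. Alternatives were no term for mouse, RLE normalization, DESeq2 1.42.0, voom with quality weights in limma 3.58.1, no filter, each mouse left out, mice 3 and 4 left out, Aldh1a1 and Aldh1a7 summed, and, added after the data were seen, the epithelial markers as a covariate. Genes of few counts, such as Aldh3b1 with 11 in its lowest library, have a larger counting error.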

Additional observations from a re-analysis of the deposited data

Results flagged for a closer look

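Dixon's test for a library or mouse far from the rest of its group flagged 6 of 34 groups examined, where chance would flag about 1.7. Both paired differences that move with the epithelial markers stood out in mouse 4: Aldh1a3 at a log2 difference of 3.21, against -3.02 to -0.55 in the other 6 mice, and Aldh3a1 at 4.84, against -2.85 to -0.12. In mouse 4 the 12 surface and corneal epithelium markers summed to 1818 CPM in the control eye and 23229 CPM in the Nrf2 eye.

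The library Nrf2 4 was also apart in Aldh1a2, at 12.9 CPM against 2.99 to 6.71 CPM in the other Nrf2 libraries. Control 3 was apart in Aldh3b1, at 3.16 CPM against 1.11 to 1.63 CPM, and in the vector transcript, at 1160.0 CPM against 0.987 to 168 CPM in the other control libraries. Control 6 was apart in Aldh7a1, at 30.5 CPM against 48.8 to 61.4 CPM, and it had the highest sum of epithelial markers, 61116 CPM.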

How the results depend on the processing

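Of the 10 genes, 1 was called with mouse as a term, and 3 with no term for mouse, that is without the pairing (1100 genes in all against 559, and 17 against 11 of the fixed pathway lists). DESeq2 called 4 of the 10 (1943 in all, 21 of the lists), and voom with quality weights called 4 (2594 in all, 22 of the lists). Without the filter 347 genes were called. With each mouse left out in turn, 0 to 3 of the 10 were called, 111 to 2052 genes in all, and 5 to 24 of the lists; the highest counts came without mouse 4. Without mice 3 and 4 together, 2 of the 10 were called, Aldh7a1 and Aldh1a3. The cause of these differences was not tested. Some log2 fold changes turned sign. Aldh3a1 was 0.81 with the epithelial covariate. Aldh1a2 was -0.42 with voom and -0.056 to 0.64 with single mice left out. Aldh1b1 was 0.32 without the pairing, 0.26 with the covariate and -0.50 to 0.24 with single mice left out. With the covariate Aldh1l2 was -0.033, Aldh3b2 0.21, Aldh3b3 0.0089 and Aldh18a1 0.0080, and Aldh8a1 was -0.23 with voom. Aldh18a1 was 0.15 without the pairing, 0.0046 with RLE, 0.0050 with DESeq2, 0.040 without mice 3 and 4, and -0.22 to 0.10 with single mice left out. No other direction among the family members and the called list genes turned under the alternatives run.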

Other observations

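The photoreceptor markers were low in these eyecup libraries. Of 8 cone markers, 2 passed the test and both were lower in Nrf2 libraries, with a median log2 fold change of -3.03 over the 8 and a summed level of 34.7 to 823 CPM in control libraries and 15.2 to 75.3 CPM in Nrf2 libraries. At an unadjusted p under 0.05 there were 7 of the 8, DESeq2 called 6 and voom 8, all lower, and with single mice left out edgeR called 0 to 2. Over all 16289 genes tested, 0.491% passed with lower values in edgeR with all mice, and 2955 had an unadjusted p under 0.05. DESeq2 and voom called 11.9% and 15.9% in either direction, and 705 and 1008 genes with lower values. Of 8 rod markers none passed in edgeR, 4 had an unadjusted p under 0.05, and DESeq2 called 4 and voom 5, all lower. Among the RPE markers, Rpe65, the isomerase of the visual cycle, fell by 2.17 on the log2 scale (SE 0.37, adjusted p = 0.0198). It was the 1 of 10 RPE markers called in edgeR with all mice, and it lost that call without mouse 1, 2, 3, 5 or 6. The median log2 fold change of the 10 was -0.27, and 4 of them were above 0. The highest was Ttr, the carrier of thyroid hormone and of retinol-bound Rbp4, at 1.58 (adjusted p = 0.103), which was called with higher values in DESeq2, in voom, without mouse as a term and without mouse 4. Markers of Muller glia, lens, choroidal fibroblasts, melanocytes, endothelium and immune cells, in lists of 8 or 10 genes, had median log2 fold changes of -0.52, 0.10, 0.33, 0.16, -0.069 and 0.80. None of them was called in edgeR with all mice. At an unadjusted p under 0.05 there were 2 Muller glia genes, 1 melanocyte gene and 1 immune gene, and DESeq2 called 1, 1 and 3 of these lists. Voom called 3 Muller glia genes, 1 higher and 2 lower, and no melanocyte or immune gene.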
